A study of Arabidopsis thaliana with 4 samples.

Results

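The pseudo-response regulators and the evening complex are transcriptional parts of the plant circadian clock, and their footprint counts were compared between seedlings of a ClpD overexpression line and wild type. The set held 10 of the 27554 genes with an identifier in the deposited table: PRR9, PRR7, PRR5, PRR3, TOC1, ELF3, ELF4, LUX, BOA and GI. They were chosen by their identifiers as members of the clock, with the line 5 and WT counts of these libraries already in view, so all their line 5 against WT values are a description and carry no test of their own. The libraries hold ribosome footprints, short stretches of mRNA covered by ribosomes and so spared by nuclease, from whole Arabidopsis thaliana seedlings aged 6 days. The groups were line 5 (labelled #5, constitutive ClpD overexpression in the WT background, n = 2 libraries) and WT (n = 2 libraries). ClpD (listed as ERD1) is an ATPase that works inside chloroplasts but is encoded in the nucleus, and the submitters asked how seedlings that accumulate its precursor respond. Line 5 is the only overexpression line used here, so ClpD overexpression and other differences of that line cannot be told apart. The time of day at harvest and the light cycle are not given in the labels, and they do not say whether replicates were grown separately, so the p-values cover only the variation among these libraries, possibly all technical. Footprint counts follow both mRNA amount and ribosome occupancy, and in whole seedlings fewer cells with a transcript and less transcript per cell cannot be told apart.

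Total counts were 42291527 and 38990360 in line 5 and 29772406 and 27260818 in WT. ERD1 had 3112 and 3302 CPM (counts scaled to library size with TMM factors) in line 5, against 167 and 175 CPM in WT, an 18.8-fold difference (edgeR quasi-likelihood test, adjusted p = 0.00126). Of 5 shoot markers none was at 0, and their summed level was 46100 and 42100 CPM in line 5, against 62300 and 67800 CPM in WT. The 5 root markers were nearly absent from libraries labelled whole seedlings, with summed levels of 0.264 and 0.677 CPM in line 5 and 0.247 and 0.371 CPM in WT and 1 or 2 of them at 0 in each library. The summed level of 4 seed storage genes was 9.62 and 3.13 CPM in line 5, against 22.3 and 25.9 CPM in WT. Most of the WT sum was CRA1, none of the 4 was called by edgeR, and SESA1 overlapped between the groups. The part of such tissue or age markers in the clock values was not tested.

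As background, the pseudo-response regulators are repressors that appear in sequence through the day, PRR9 in the morning, PRR7 around midday, PRR5 and PRR3 in the afternoon and TOC1 near dusk. They switch off CCA1 and LHY, the MYB factors of dawn, which in turn hold down evening genes. The evening complex of ELF3, ELF4 and LUX forms around dusk and represses PRR9, PRR7, GI and growth genes, and GI works with F-box proteins that mark clock and flowering repressors for destruction. In Arabidopsis seedlings these genes link light and temperature to growth and flowering time.

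PRR9 was lower and the other 9 genes were higher in both line 5 libraries than in both WT libraries, so the groups did not overlap for any of the 10. For PRR3 this rested on counts of 5 in line 5 replicate 1 and 2 in WT replicate 2, too few to be read. PRR3 is also not among the genes tested, which the next shares cover. Among the 18737 genes tested, both line 5 libraries were above both WT libraries for 34.7% and below both for 33.4%, so non-overlap alone was common. The low-count filter kept 9 of the 10 genes, all but PRR3. The edgeR fit across all genes, at an adjusted p threshold of 0.05, placed ELF4 among the higher genes and PRR9 among the lower ones, and left the other 7 uncalled, where 6.72% of all genes tested were called higher and 8.72% lower. The median log2 fold change of the 9 was 1.32, from -1.57 for PRR9 to 3.59 for PRR5, against a median of 0.0023 for all genes tested. DESeq2 counted PRR7, ELF3, LUX and GI as higher too, where it called 7.82% of all genes higher and 11.2% lower. Without WT replicate 1 edgeR called 4 of the 9 higher, where it called 11.4% of all genes higher and 15.1% lower. With line 5 replicate 1 left out edgeR called 0 of the 9 in either direction, where it called 37 of all genes (0.196%) higher and 14 (0.0740%) lower, and with line 5 replicate 2 left out 0 of the 9, where it called 25 (0.133%) higher and 3 (0.0159%) lower. Nothing is read from these counts and medians, since the contrast was known when the genes were chosen.

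**Figure D1:**
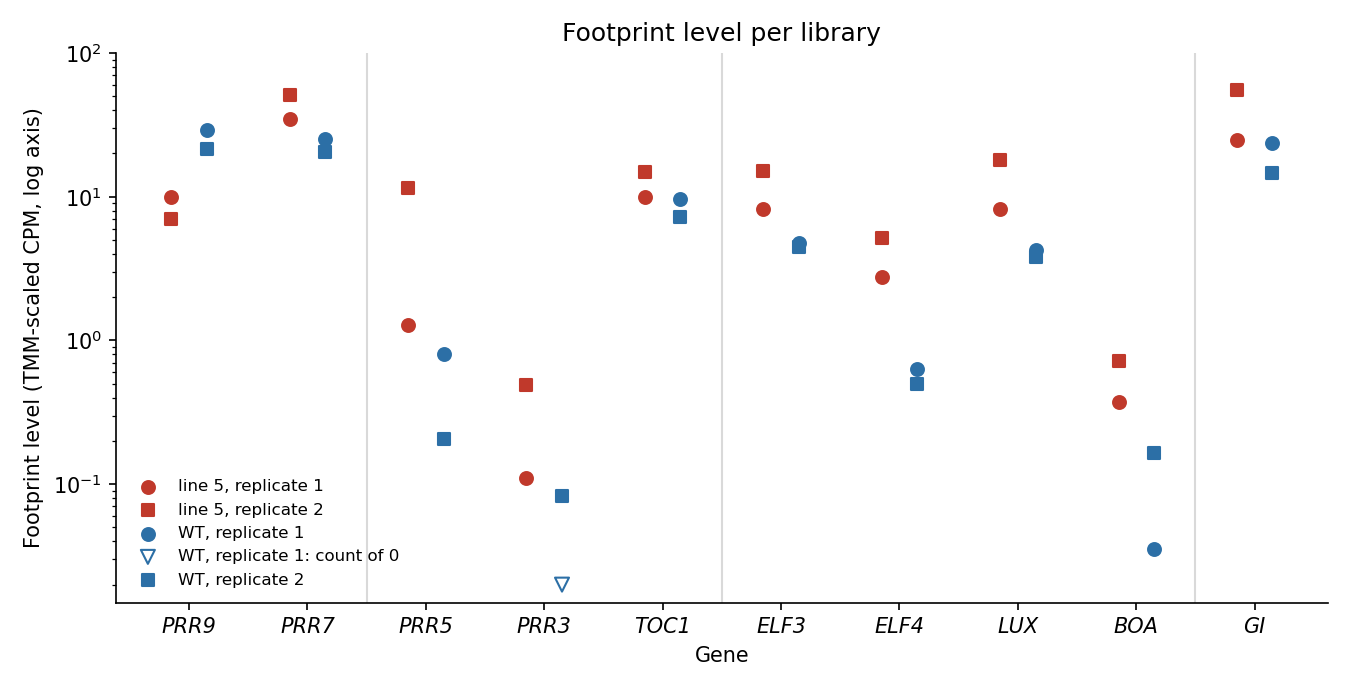
Footprint level of the 10 genes in each library, as TMM-scaled CPM on a log axis, with line 5 in red to the left of WT in blue (circle, replicate 1; square, replicate 2) and vertical lines between the morning and day regulators, the evening regulators, the evening complex and GI. PRR9 is the gene with both line 5 points below the WT points; PRR3 had a count of 0 in WT replicate 1, drawn as an open triangle at the foot of the axis.

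PRR9 (AT2G46790), the morning member of the repressor series, had 9.99 and 7.05 CPM in line 5, against 29.1 and 21.3 CPM in WT. Both line 5 libraries lay below the lower WT library, and the log2 fold change was -1.57 (SE 0.239). PRR7 (AT5G02810), the midday regulator that acts together with PRR9, went the other way. It had 34.6 and 50.8 CPM in line 5, against 25.3 and 20.6 CPM in WT, with a log2 fold change of 0.90 (SE 0.224). The step from the higher WT library to the lower line 5 library was smaller than the distance between the line 5 libraries.

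PRR5 (AT5G24470), an afternoon repressor that also helps bring TOC1 into the nucleus, differed most between libraries of a group. It had 1.28 and 11.4 CPM in line 5, against 0.811 and 0.206 CPM in WT, from counts of 58 and 489 in line 5 and 23 and 5 in WT. Its log2 fold change of 3.59 had an SE of 1.25 and rested on line 5 replicate 2: without that library it was 1.29, and it was 4.44 without line 5 replicate 1, 4.91 without WT replicate 1 and 2.96 without WT replicate 2. TOC1 (AT5G61380), the dusk repressor of CCA1 and LHY, had 9.93 and 14.9 CPM in line 5, against 9.66 and 7.22 CPM in WT. The line 5 replicate 1 value was barely above the higher WT value, and the log2 fold change was 0.55 (SE 0.256), or 0.23 without line 5 replicate 2. PRR3 (AT5G60100), which is known to shield TOC1 from degradation, had counts of only 5 and 21 in line 5 and 0 and 2 in WT, and was not tested. The counts summed over each group gave a line 5 over WT ratio of 7.75 with a 95% exact counting interval of 1.94 to 67.3, which covers counting error only.

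All 4 evening complex genes were higher in both line 5 libraries. ELF4 (AT2G40080), a small protein that promotes ELF3 activity, had 2.75 and 5.19 CPM in line 5, against 0.635 and 0.495 CPM in WT. The lower line 5 library was several times the higher WT library, and the fold change was 6.94 (log2 2.79, SE 0.427). ELF3 (AT2G25930), the scaffold of the complex and a temperature sensor, had 8.19 and 15.0 CPM in line 5, against 4.80 and 4.46 CPM in WT, a log2 fold change of 1.32 (SE 0.318). LUX (AT3G46640, listed as PCL1), the MYB factor that brings the complex to DNA, had 8.19 and 18.1 CPM in line 5, against 4.27 and 3.80 CPM in WT, a log2 fold change of 1.70 (SE 0.405), or 1.02 without line 5 replicate 2. For both genes the WT libraries lay close together and the line 5 libraries far apart. BOA (AT5G59570), a close relative of LUX that can bind the same partners, had counts of 17 and 31 in line 5 and 1 and 4 in WT. Its ratio of summed counts, line 5 over WT, was 5.72 with a 95% exact counting interval of 2.29 to 18.4, and the fitted log2 fold change of 2.47 (SE 0.782) was 1.71 without WT replicate 1 and 3.84 without WT replicate 2, which leaves a WT count of 1. In the RefSeq annotation BOA overlaps the glucosyltransferase gene UGT76E1 (AT5G59580), which had 4.31 and 5.51 CPM in line 5, against 1.97 and 1.77 CPM in WT, and was itself called higher (log2 fold change 1.39, SE 0.218; edgeR, adjusted p = 0.0256). Whether reads of that gene entered the BOA count was not tested. LUX overlaps AT3G46650, with counts of 5 and 2 in line 5 and 4 and 1 in WT, and ELF3 overlaps ALPHA-VPE (AT2G25940), with 53 and 42 in line 5 and 20 and 28 in WT, both well under the counts of LUX and ELF3, and an antisense RNA, AT2G08135, not used here. The other 7 genes overlap no annotated gene.

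GI (AT1G22770), the large partner of the ZTL and FKF1 photoreceptor F-box proteins, had 24.9 and 55.0 CPM in line 5, against 23.6 and 14.6 CPM in WT. Line 5 replicate 1 was close to WT replicate 1, while line 5 replicate 2 was far above both. The log2 fold change was 1.06 (SE 0.434), 1.53 without line 5 replicate 1 and 0.38 without line 5 replicate 2.

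**Figure D2:**
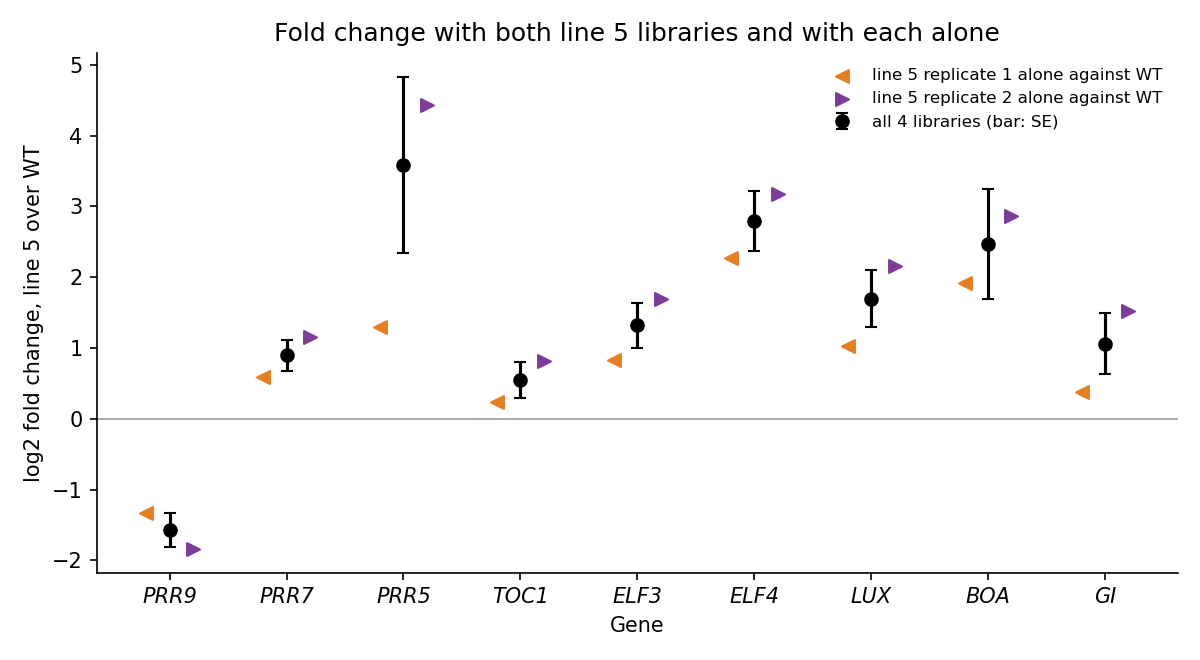
log2 fold change of line 5 over WT for the 9 genes that passed the filter, from all 4 libraries (black, bars show the SE) and with line 5 replicate 1 or 2 alone (orange and purple triangles). Replicate 2 alone gives the value farther from 0 for every gene shown; PRR5 spans 1.29 to 4.44 and GI 0.38 to 1.53.

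The 2 line 5 libraries differed from each other in these genes by more than most genes did. Replicate 2 of line 5 was above replicate 1 for the 9 genes that were higher in line 5, and below it for PRR9, so it lay farther from WT for all 10. The ratio of replicate 2 to replicate 1 in line 5 was 8.95 for PRR5, 4.46 for PRR3, 2.21 for LUX and 2.21 for GI, and lay from 1.47 to 1.94 for PRR7, TOC1, ELF3, ELF4 and BOA. Of the 9 genes tested, 3 were over 2-fold higher in replicate 2 than in replicate 1 of line 5, where 1.56% of all genes tested were. None of the 9 was over 2-fold lower, where 0.902% of all genes were. The middle 90% of all genes tested spanned ratios of 0.708 to 1.49 for this pair. PRR9, at 0.706, fell just below that span, and PRR7, at 1.47, lay just inside it. In WT the ratio of replicate 2 to replicate 1 was between 0.618 and 0.929 for GI, PRR9, TOC1, ELF4, PRR7, LUX and ELF3, and 0.254 for PRR5, the other direction from line 5 for all of these but PRR9. The middle 90% of all genes tested spanned ratios of 0.559 to 1.71 for the WT pair. Of the genes just named only PRR5 lay outside it, so the other WT ratios were within the usual spread. BOA and PRR3 had too few WT counts for a ratio to be read. Each ratio compares a single library with another single library and has no replicate check.

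**Figure D3:**
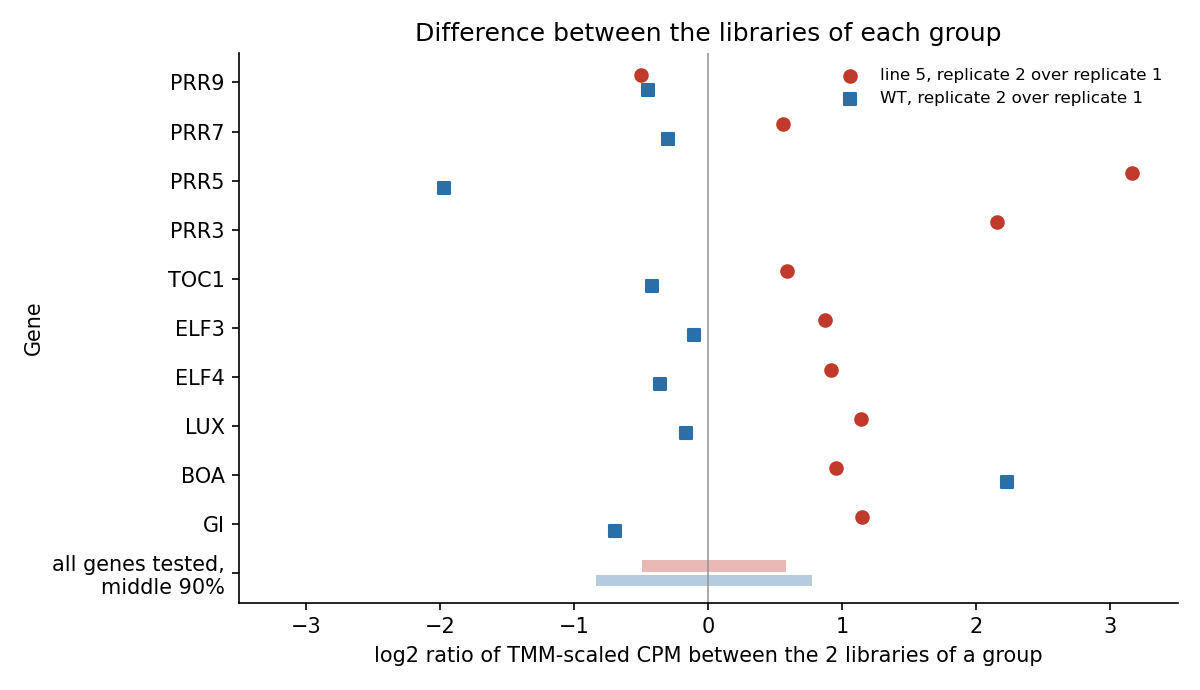
log2 ratio of replicate 2 to replicate 1 within line 5 (red circles) and within WT (blue squares) for each gene, with the bars at the foot showing the span of the middle 90% of all genes tested in each pair. In line 5, 9 of the 10 genes lie to the right of 0 and PRR9 to the left; the WT ratio of PRR3 is missing because 1 library had a count of 0.

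Levels between genes were compared per length, with the FPKM values the authors deposited, in which counts are divided by gene length and library total. In line 5 the order by mean FPKM was PRR7 (16.8 and 25.2 FPKM), LUX (8.76 and 19.7), GI (7.52 and 17.0), ELF4 (8.03 and 15.5), PRR9 (9.40 and 6.57), TOC1 (5.65 and 8.66), ELF3 (4.15 and 7.77), PRR5 (0.80 and 7.34), BOA (0.44 and 0.87) and PRR3 (0.09 and 0.35). Only BOA and PRR3 were neighbours whose line 5 libraries did not overlap. In WT PRR9 led with 23.4 and 15.7 FPKM, followed by PRR7 with 10.9 and 8.37 FPKM, without overlap. GI, TOC1 and LUX came next, with means of 4.98, 4.14 and 3.71 FPKM and overlapping libraries from each to the next, then ELF3 with 2.15 and 1.87 FPKM and ELF4 with 1.64 and 1.20 FPKM, both apart from their neighbours. PRR5, BOA and PRR3 had means of 0.28, 0.10 and 0.03 FPKM and overlapped from each to the next. PRR9 thus held rank 5 in line 5 and rank 1 in WT, and ELF4 rank 4 in line 5 and rank 7 in WT. The authors' deposited table gives log2 fold changes of mean FPKM of -1.29 for PRR9, 3.05 for ELF4, 1.94 for LUX, 1.57 for ELF3, 1.30 for GI and 1.12 for PRR7, and these 6 have its FDR under 0.05. The other 4 of the authors' deposited table, from 0.79 for TOC1 to 3.86 for PRR5, do not. The deposited fold changes carry no TMM factors, so they are not on the scale of the fitted ones above. DESeq2 run here on the same libraries called the same 6 genes, so the deposited FDRs are not a separate line of evidence.

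Other clock genes, listed by what they are known for but with earlier results of these data known, were set beside these. Their calls and adjusted p-values are therefore a description too and give no independent support. The dawn list held CCA1 and LHY, targets of the pseudo-response regulators, and the REVEILLE family, listed as their relatives and not as such targets. It had 9 of 10 tested genes lower and 1 higher in line 5, with a median log2 fold change of -2.24, where 8.72% of all genes tested were called lower and 6.72% higher. CCA1 (AT2G46830), a MYB repressor of evening genes, had 41.8 and 18.5 CPM in line 5, against 147 and 172 CPM in WT (log2 fold change -2.40, SE 0.398; edgeR, adjusted p = 0.0272), and the log2 fold change was -3.10 without line 5 replicate 1 and -1.93 without line 5 replicate 2, where the gene was no longer called (edgeR, adjusted p = 0.128). LHY (AT1G01060), its partner, named after its values were seen, had 12.9 and 2.57 CPM in line 5, against 75.6 and 127 CPM in WT. For CCA1 and LHY, replicate 2 of line 5 lay farther from WT than replicate 1. The replicate 2 over replicate 1 ratio was 0.442 for CCA1 and 0.199 for LHY. Over the whole dawn list that ratio was below 1 for 6 of the 10 genes and above 1 for 4, with a median of 0.806. ASG4 (AT1G01520) had the smallest p of this list, with 1.43 and 0.841 CPM in line 5 and 20.9 and 19.3 CPM in WT (log2 fold change -4.13, SE 0.262; edgeR, adjusted p = 0.00794). RVE4 (AT5G02840), an activator of evening genes, had a log2 fold change of -1.18 (edgeR, adjusted p = 0.0294), AT5G52660 -1.03 (adjusted p = 0.0182) and AT4G01280 -0.96 (adjusted p = 0.0267). Leaving out line 5 replicate 1 gave 2 of the dawn list called lower and 0 higher, where 14 of all genes were called lower and 37 higher. Leaving out line 5 replicate 2 gave 1 and 0, where 3 and 25 of all genes were called.

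Among 27 tested genes of 31 other clock regulators, 8 fell and 2 rose (median log2 fold change 0.03), and the share that rose was close to the 6.72% of all genes tested, while 8.72% of those fell. Those with the smallest p were the B-box factors BBX18 (AT2G21320, log2 fold change -1.88, SE 0.227) and BBX19 (AT4G38960, -2.21, SE 0.310), which with the LNK coactivators LNK1 (AT5G64170, -1.37, SE 0.195), LNK2 (AT3G54500, -1.67, SE 0.239) and LNK4 (AT5G06980, -1.65, SE 0.236) had adjusted p from 0.0182 to 0.0225 by edgeR. LNK1 had 33.5 and 23.1 CPM in line 5, against 73.5 and 73.1 CPM in WT. How many of this list were called depended on which library was left out, as given further below beside the counts for all genes. Of 8 tested genes among 9 relatives of the PRR, ELF3, ELF4 and LUX proteins, 2 rose and 2 fell, a small list beside the same 6.72% and 8.72% of all genes. Among the rises, AT3G21320 passed the low-count filter through line 5 alone, so it is not weighed against these shares. APRR2 (AT4G18020), annotated as a CheY-like response regulator, fell by 1.28 on the log2 scale (SE 0.117; edgeR, adjusted p = 0.0136), with 7.37 and 8.06 CPM in line 5, against 18.8 and 18.7 CPM in WT. MYBC1 (AT2G40970) fell by 0.73 (SE 0.135). ELF4-L4 (AT1G17455), an ELF4-like gene, rose 2.65-fold, with 4.18 and 6.66 CPM in line 5, against 2.29 and 1.77 CPM in WT (edgeR, adjusted p = 0.0425), while ELF4-L2 (AT1G72630) was not called (log2 fold change 0.37, SE 0.127). AT3G21320, annotated as an early flowering protein, had counts of 16 and 30 in line 5 and 1 and 0 in WT, a ratio of 27.4 with a 95% exact counting interval of 4.68 to 1106. With such WT counts it could enter the test only by being high in line 5. The edgeR call of AT3G21320 as higher is therefore not read as a test of direction. All its WT reads came from WT replicate 1, so no fold was read without that library. These 2 rises were not called without WT replicate 2, and none of the 4 calls was kept with either line 5 library left out.

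Of 19 tested output genes downstream of the evening complex, the pseudo-response regulators and GI, 8 fell and 2 rose (median log2 fold change -0.23), where 8.72% of all genes tested fell and 6.72% rose. The flowering repressor CDF3 (AT3G47500), whose protein family GI helps to destroy, had 28.6 and 20.7 CPM in line 5, against 66.2 and 59.3 CPM in WT (log2 fold change -1.35, SE 0.183; edgeR, adjusted p = 0.0216). COL1 (AT5G15850), a CONSTANS relative, fell by 2.25 (SE 0.254) and the cold response factor DREB1C (AT4G25470, listed as CBF2), which the PRRs repress, by 1.60 (SE 0.227) on the log2 scale. The shade marker genes PIL1 (AT2G46970) and ATHB2 (AT4G16780, listed as HB-2) rose 5.57-fold and 1.76-fold, with PIL1 at 3.87 and 3.15 CPM in line 5, against 0.599 and 0.660 CPM in WT. The growth factors PIF4 (AT2G43010) and PIF5 (AT3G59060, listed as PIL6), textbook targets of the evening complex singled out after their values were seen, had log2 fold changes of -0.23 (SE 0.190, not called) and -0.64 (SE 0.122; edgeR, adjusted p = 0.0337). PIF4 had 30.6 and 40.9 CPM in line 5, against 37.4 and 46.6 CPM in WT, and its groups overlapped. The number of the 19 that were called also changed with the library left out, as given further below beside the counts for all genes.

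**Figure D4:**
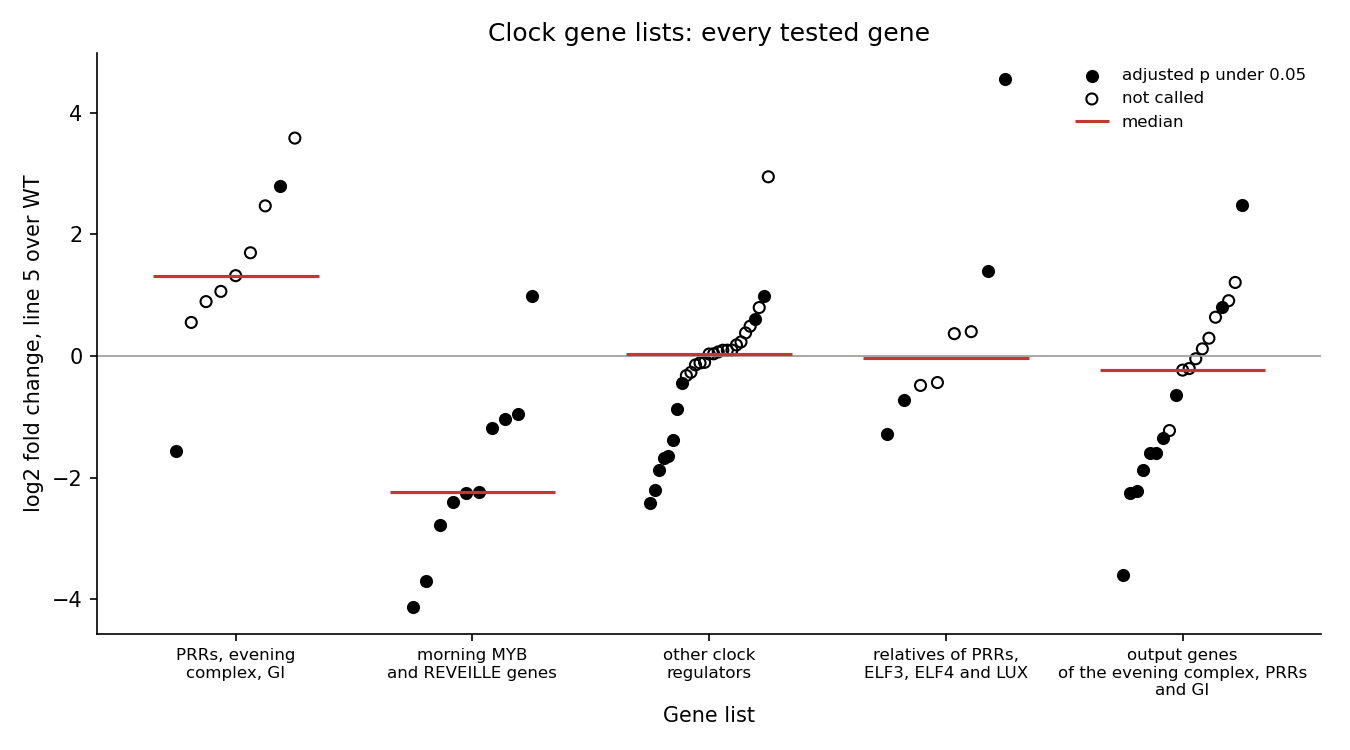
log2 fold change of line 5 over WT for every tested gene of the 10 clock genes described here and of 4 other lists (filled, adjusted p under 0.05 by edgeR; open, not called; red line, median of the list). The dawn list has 9 filled points below 0 and 1 above, while the PRR, evening complex and GI set has 8 of 9 points above 0, of which 1 is filled.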

How the data were processed

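The authors deposited a table with a whole-number count and an FPKM per gene and library, their group means of FPKM, and the log2 fold change, p-value and FDR of their comparison, per the file headers. Tools named in the submitters' processing notes were fastp, Bowtie2, STAR, RSEM and DESeq2 with build TAIR10; the sources used here do not give their roles, the strand setting or the authors' test. The 5 rows without an identifier, copies of plastid genes with 0.0145% to 0.0340% of counts, were left out. Testing used edgeR 4.0.16 in R 4.3.3: filterByExpr with a minimum count of 10, TMM factors (1.07 and 1.10 in line 5, 0.953 and 0.889 in WT), a two-sided quasi-likelihood test on group and Benjamini-Hochberg adjustment over 18737 genes, tested on simulated data. The SE is the log2 fold change divided by the square root of F. A floor of 3 counts is 0.0660 to 0.124 CPM. For genes with 3 counts or fewer in a library, a ratio of summed counts is given where the text compares the groups by size. Those that passed the filter keep a fitted log2 fold change in the medians and figures, and for BOA it is also printed. BOA and AT3G21320 passed the filter through their line 5 counts only, so the filter set the direction of their fitted values. The counting intervals pool the reads of a group and cover counting error only, not the spread between libraries. Alternatives used DESeq2 1.42.0 and limma 3.58.1 on log2(FPKM + 1) and log2(FPKM + 0.1), whose fold changes understate low genes. Replicates were separate libraries, since their counts differed beyond sampling noise (chi-square over degrees of freedom 25.8 in line 5 and 39.3 in WT). Names came from RefSeq assembly TAIR10.1, with 27444 identifiers matched and no coordinates printed. The members, the 4 other lists (69 genes), the markers and the tests were chosen with earlier results of these data known. Named were all members, ERD1, up to 5 genes of each list with the smallest p, genes overlapping a member, and others as stated.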

Additional observations from a re-analysis of the deposited data

How the results depend on the processing

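Across 13 alternatives, the 29 single genes set beside them (9 of the PRR, evening complex and GI set and 20 of the other lists) changed sign in 0 cases. The groups did not overlap for any of these 29, so leaving out a library could hardly change a sign, and nothing is read from this. In the alternatives that kept all libraries, a single gene lost its call in 14 cases and gained one in 16. Without 1 library at a time, the number of genes called ranged from 25 to 2197 higher and from 3 to 2904 lower, against 1260 and 1633, with both minima without line 5 replicate 2 and both maxima without WT replicate 1. The PRR, evening complex and GI set then had 0 to 4 called higher and 0 to 1 lower, and its median log2 fold change ranged from 0.82 without line 5 replicate 2 to 1.70 without line 5 replicate 1. In the same fits the dawn list had 0 to 1 higher and 1 to 9 lower, the other clock regulators 0 to 3 higher and 0 to 8 lower, the relatives 0 to 2 higher and 0 to 2 lower and the output genes 0 to 4 higher and 0 to 8 lower. Fits with 3 libraries take the spread from 1 pair, and the lone library is assumed to vary like it.

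DESeq2 called 5 of the set higher and 4 of the other clock regulators, where it called 1512 genes higher and 2162 lower. With no filter on low counts 4 of the set were higher, where 1573 of 23410 genes were, and with the stricter filter 1 relative was, while PRR5, BOA and AT3G21320 did not pass it and have no value there. On log2(FPKM + 1) limma called 2796 genes higher and 1079 lower, with 4 of the set higher and 1 relative lower. On log2(FPKM + 0.1) it called 1637 genes higher and 670 lower, and the lower ones held 0 of the set (PRR9 was not called), 1 relative and 5 output genes. These FPKM fits, which apply no TMM factors, move the median of all genes to a log2 fold change of 0.20 (pseudocount 1) and 0.24 (pseudocount 0.1), against 0.0023. The cause of these changes was not tested. Replicate numbers are shared between groups but no label says that they pair the libraries, and same-numbered deviations correlated at -0.117 across genes. With the replicate block, 286 genes were higher and 457 lower, with 0 and 2 of the dawn list, 0 and 3 of the other clock regulators, 0 and 1 of the relatives and 1 and 5 of the output genes. The crossed block, added after seeing the data, called 1530 genes higher and 2067 lower, and 6 of the set higher. The low counts of PRR3 and BOA limit them to the counting intervals given. The promoter and protein descriptions that had been planned were not run.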

Other observations

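Some evening-phased clock regulators were too scarce for the filter and were not tested; they are named here after their values were seen. FKF1 (AT1G68050), the blue light receptor F-box partner of GI, had counts of 12 and 124 in line 5 and 8 and 2 in WT. Line 5 replicate 1 was inside the WT range on the CPM scale, with 0.264 CPM there and 0.282 CPM in WT replicate 1. The ratio of summed counts, line 5 over WT, was 8.10 with a 95% exact counting interval of 4.27 to 17.3. Most line 5 reads of FKF1 came from replicate 2, and the interval covers counting error only, as does the next one. COR27 (AT5G42900), a cold-regulated clock repressor, had counts of 5 and 26 in line 5 and 1 and 0 in WT, a ratio of 18.5 with an interval of 3.08 to 753. JMJ30 (AT3G20810, listed as JMJD5), a jumonji-domain protein of the clock, had counts of 11 and 25 in line 5 and 4 and 5 in WT. COR28 (AT4G33980), the remaining untested gene of that list, had counts of 7 and 19 in line 5 and 1 and 4 in WT, and its groups overlapped. In each of these genes line 5 replicate 2 held the highest value of the 4 libraries. The list of 31 other clock regulators had no such trend. Replicate 2 of line 5 was above replicate 1 for 15 of them and below it for 16, with a median ratio of 0.986. GRP7 (AT2G21660), a clock-controlled RNA-binding protein of the same list, passed the filter and was also named after its values were seen. It had 105 and 489 CPM in line 5, against 37.9 and 39.0 CPM in WT, and was not called (log2 fold change 2.95, SE 0.729; edgeR, adjusted p = 0.0552).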
